A study of Mus musculus with 6 samples.

Results

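Hmgcs1, Idi1, Fdps, Fdft1, Sqle, Lss and Cyp51 encode 7 enzymes of cholesterol synthesis. They were chosen by name and matched by exact symbol, and all 7 were found among the 55353 genes of the tables. The set had been put together under the heading of cholesterol synthesis and LDL uptake, but every gene in it encodes an enzyme of synthesis, so it is called the cholesterol synthesis genes here. RNA came from whole mouse testes at postnatal day 14, with 3 control libraries and 3 libraries of the Rnu11 conditional knockout (Rnu11 cKO, called mutant below). The product of Rnu11 is the U11 small nuclear RNA, which recognises the start of the rare minor (U12-type) introns. The libraries were made from ribosomal-RNA-depleted total RNA. Strain, Cre line, the cell type in which Rnu11 is deleted and the alleles of the controls are named in none of the labels.

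Cells make cholesterol from acetyl-CoA through the mevalonate pathway. Hmgcs1 makes the precursor of mevalonate, Idi1 and Fdps build farnesyl diphosphate from isoprene units, Fdft1 joins 2 farnesyl units into squalene, Sqle and Lss turn squalene into lanosterol, and Cyp51 starts the trimming of lanosterol towards cholesterol. The genes of the pathway are known as targets of SREBP2, a transcription factor released from the endoplasmic reticulum membrane when sterols run low, which acts on sterol regulatory elements in promoters, often beside NF-Y. In the testis, Leydig cells use cholesterol for androgen synthesis, and Sertoli cells and germ cells need it for membranes.

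The promoter sequences below are shown because they hold the letters that these regulators are known to bind. Promoter windows from RefSeq (GRCm38.p6, 250 bases before to 50 bases after a start) were at hand for 4 of the 7 genes, namely Hmgcs1, Idi1, Lss and Cyp51. The sterol element, searched as TCACNCCA on both strands, was found in 1 of these 4, Hmgcs1, and in 4.36% of 32851 windows. The NF-Y box, searched as CCAAT on both strands, was found in all 4 and in 37.4% of windows. No 2 matches overlap. The first sequence is the whole upstream part of the Hmgcs1 window (chr13:119690101-119690350, plus strand, 5′ to 3′), with the sterol element and the NF-Y boxes, read on the opposite strand as ATTGG, in capitals. The 4 short stretches hold 1 NF-Y box of each gene in capitals, with 12 bases on either side, on the strand of the gene: Hmgcs1 at chr13:119690294-119690322, Idi1 at chr13:8885549-8885577, Lss at chr10:76531531-76531559 and Cyp51 at chr5:4104710-4104738 (minus strand).
Hmgcs1 promoter: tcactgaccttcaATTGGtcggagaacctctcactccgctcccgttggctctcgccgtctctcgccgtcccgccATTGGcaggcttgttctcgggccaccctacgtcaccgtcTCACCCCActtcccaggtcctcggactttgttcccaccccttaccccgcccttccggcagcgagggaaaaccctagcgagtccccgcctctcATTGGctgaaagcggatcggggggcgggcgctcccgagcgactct
Hmgcs1 NF-Y box: tccccgcctctcATTGGctgaaagcggat
Idi1 NF-Y box: tgcctccagctgATTGGcgagcccgggca
Lss NF-Y box: ggtgatgctctgATTGGccgagctcgcat
Cyp51 NF-Y box: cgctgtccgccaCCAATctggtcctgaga
The sterol element of Hmgcs1 starts 137 bases before the RefSeq start, and its 3 upstream NF-Y boxes start 237, 176 and 45 bases before it. A further match of Hmgcs1 lies 11 bases into the transcript and is not shown. The boxes in the short stretches start 45 bases before the start in Hmgcs1 and in Idi1, 62 in Lss and 29 in Cyp51, with a further box at 14 in Idi1. The stretches of Idi1 and Cyp51 lie inside the gene as GENCODE M21 gives it, whose starts differ from those of RefSeq. The matches are descriptions of letters, not of binding.

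Values are TPM (an estimate of transcript abundance corrected for transcript length and for the total of each library). TPM keeps no sequencing depth, so depth was unknown and no counting error could be given. Rnu11 itself was 614, 576 and 550.3 TPM in the 3 controls and 196, 393 and 203 TPM in the 3 mutants, lower in every mutant (log2 difference -1.21, SE 0.26, limma adjusted p = 0.29). Markers of Leydig, Sertoli and germ cells were present in every library. The summed level of 10 Leydig markers was 179 to 304 TPM in controls and 311 to 478 TPM in mutants, and that of 15 Sertoli markers was 1842 to 2116 and 2574 to 3337 TPM. The summed level of 14 spermatocyte markers was 440 to 622 TPM in controls and 310 to 405 TPM in mutants. Control replicate 2 stood apart from the other controls, with the highest Leydig sum (304 against 179 and 192 TPM) and the lowest spermatocyte sum (440 against 622 and 612 TPM) of its group. In whole testes, fewer cells of a type and less RNA per cell cannot be told apart.

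None of the 7 cholesterol synthesis genes passed the test between mutants and controls. The means of Hmgcs1, Fdps, Fdft1 and Cyp51 were higher in the mutants and those of Idi1, Sqle and Lss were lower, with differences of the means from -16.2% (Idi1) to 19.7% (Hmgcs1). Idi1 was the 1 gene of the 7 whose groups did not overlap. The test was limma on log2(TPM + 1) over the 17959 genes whose mean reached 1 TPM, which all 7 did, with p-values adjusted by Benjamini-Hochberg over all of them and a threshold of 0.05. By this rule 5 genes in all were called, or 0.0278% of those tested, a share near which the 0 of the 7 falls. At an unadjusted p under 0.05, 1 of the 7 (Idi1) was lower and 0 were higher, against 3.98% of all genes lower and 12.1% higher. The median log2 difference of the 7 genes was 0.17, and that of all tested genes was 0.09. Of all tested genes 66.4% were higher in the mutants, against 4 of the 7.

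**Figure D1:**
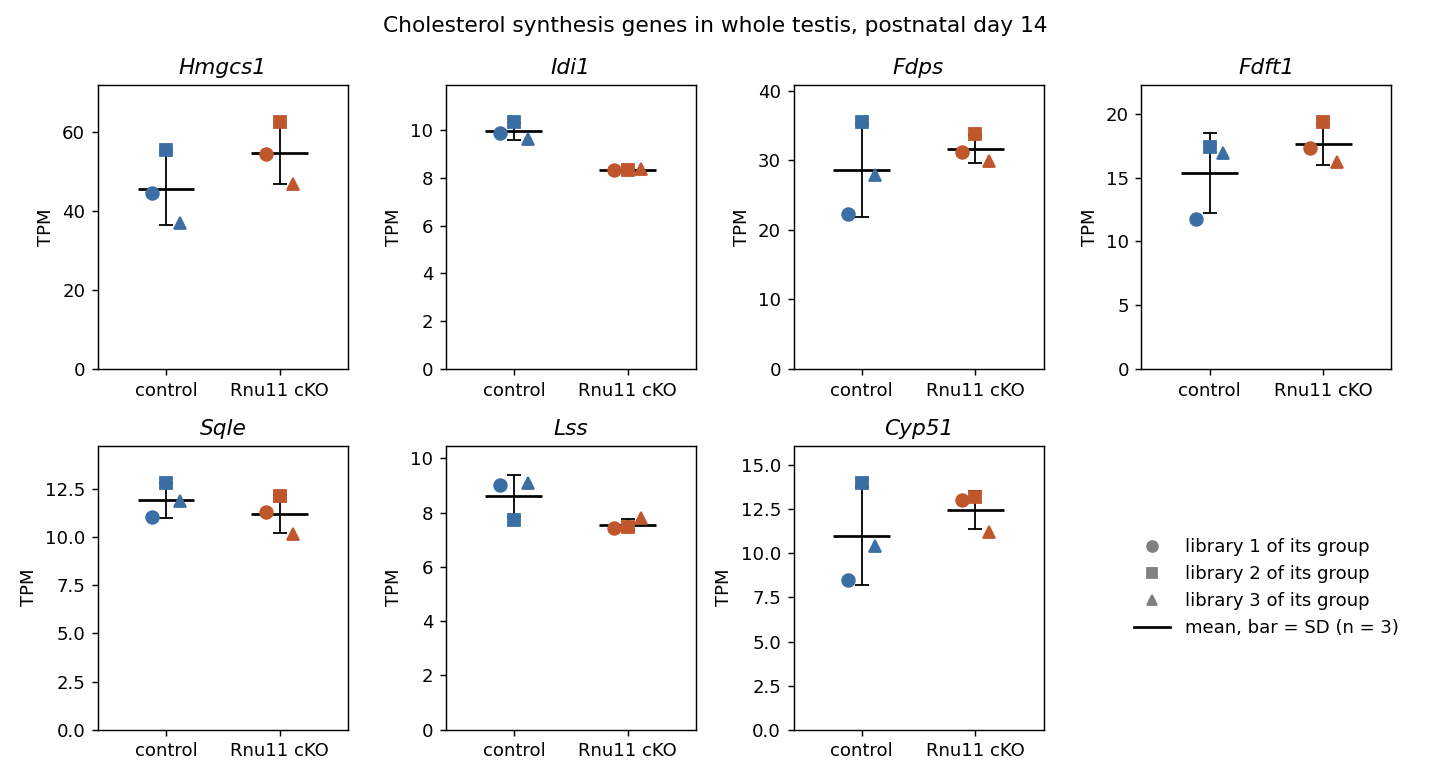
TPM of each cholesterol synthesis gene (vertical axes, starting at 0) in the 3 control and the 3 Rnu11 cKO libraries, with the mean and SD of each group as black lines. The 3 mutant values of Idi1 lie between 8.32 and 8.39 TPM, below all 3 controls, while the groups of the other 6 genes overlap.

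Hmgcs1 (ENSMUSG00000093930.2, chr13:119690379-119708260, plus strand, GRCm38) encodes the cytosolic HMG-CoA synthase and had the highest level of the 7. It measured 44.4, 55.5 and 37.0 TPM in the controls and 54.5, 62.5 and 46.8 TPM in the mutants. The highest control lay above 2 of the 3 mutants, so the groups overlapped. The means were 45.6 ± 9.30 and 54.6 ± 7.84 TPM (SD, n = 3), a log2 difference of 0.26 with an SE of 0.17 (limma adjusted p = 0.44).

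Idi1 (ENSMUSG00000058258.14, chr13:8885501-8892451, plus strand) encodes isopentenyl diphosphate isomerase, which interconverts the pair of isoprene building blocks. It measured 9.87, 10.3 and 9.65 TPM in the controls and 8.33, 8.32 and 8.39 TPM in the mutants. Every mutant lay below every control, and both groups were tight. The means were 9.96 ± 0.36 and 8.35 ± 0.035 TPM (SD, n = 3), a log2 difference of -0.23 with an SE of 0.08. The unadjusted limma p was 0.027 and the adjusted p was 0.29, and the exact two-sided permutation test gave p = 0.1, the smallest that 3 libraries against 3 allow. Of all tested genes, 5.77% were lower in the mutants with no overlap and 14.5% were higher with no overlap. The paralog Idi2 was between 0.104 and 0.141 TPM in the 6 libraries and was not tested.

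Fdps (ENSMUSG00000059743.12, chr3:89093588-89101959, minus strand) encodes farnesyl diphosphate synthase, whose product also feeds protein prenylation, ubiquinone and dolichol. It measured 22.3, 35.5 and 27.9 TPM in the controls and 31.3, 33.9 and 29.9 TPM in the mutants. The controls spread widely, with replicate 2 above and the other two below all mutants. The means were 28.6 ± 6.66 and 31.7 ± 1.99 TPM (SD, n = 3), a log2 difference of 0.17 with an SE of 0.17 (limma adjusted p = 0.60).

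Fdft1 (ENSMUSG00000021273.10, chr14:63145150-63179578, minus strand) encodes squalene synthase, the first enzyme committed to sterols. It measured 11.8, 17.4 and 16.9 TPM in the controls and 17.3, 19.4 and 16.2 TPM in the mutants. Control replicate 1 lay below the other 5 libraries, which were within 16.2 to 19.4 TPM. The means were 15.4 ± 3.10 and 17.6 ± 1.61 TPM (SD, n = 3), a log2 difference of 0.20 with an SE of 0.16 (limma adjusted p = 0.51).

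Sqle (ENSMUSG00000022351.14, chr15:59315077-59331192, plus strand) encodes squalene epoxidase, a second control point of the pathway. It measured 11.04, 12.8 and 11.9 TPM in the controls and 11.3, 12.1 and 10.2 TPM in the mutants, with overlapping groups. The means were 11.9 ± 0.89 and 11.2 ± 0.99 TPM (SD, n = 3), and the log2 difference of -0.08 was smaller than its SE of 0.10 (limma adjusted p = 0.69).

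Lss (ENSMUSG00000033105.12, chr10:76531588-76557138, plus strand) encodes lanosterol synthase, which closes the rings of the sterol skeleton. It measured 9.003, 7.72 and 9.10 TPM in the controls and 7.43, 7.46 and 7.78 TPM in the mutants. Control replicate 2 lay within the range of the mutants, and the other 2 controls lay above it. The means were 8.61 ± 0.77 and 7.56 ± 0.20 TPM (SD, n = 3), a log2 difference of -0.16 with an SE of 0.10 (limma adjusted p = 0.40).

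Cyp51 (ENSMUSG00000001467.5, chr5:4081145-4104746, minus strand) encodes lanosterol 14-alpha demethylase, and its product in germ cells is linked to meiosis-activating sterols. It measured 8.51, 14.0 and 10.4 TPM in the controls and 13.0, 13.2 and 11.2 TPM in the mutants. Control replicate 2 was the highest of all 6 libraries, and the other 2 controls lay below all mutants. The means were 10.98 ± 2.79 and 12.5 ± 1.09 TPM (SD, n = 3), a log2 difference of 0.19 with an SE of 0.17 (limma adjusted p = 0.56).

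The authors' deposited table of gene differences gave all 7 genes the same signs, with its log2 fold change marked as confident running from -0.25 (Idi1) to 0.28 (Hmgcs1). In the controls the levels ran from Hmgcs1 through Fdps, Fdft1, Sqle, Cyp51 and Idi1 to Lss. The control ranges of Fdft1 and Sqle, of Sqle and Cyp51, and of Cyp51 and Idi1 overlapped. In the mutants only the ranges of Sqle and Cyp51, among neighbours in this order, overlapped. In single libraries Fdft1 was above Sqle in 6 of 6, Cyp51 above Idi1 in 5 of 6, and Sqle above Cyp51 in 2 of 6.

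The differences depended on how the libraries were scaled to each other, because the median log2 difference of all genes moved from 0.09 to 0.00 after median-ratio scaling. After that scaling the log2 differences were 0.16 for Hmgcs1, 0.06 for Fdps, 0.10 for Fdft1 and 0.09 for Cyp51. They were -0.33 for Idi1, -0.18 for Sqle and -0.26 for Lss. Sqle was then also lower with no overlap between the groups, as were 10.9% of all tested genes. Scaling to the summed TPM of protein-coding genes gave -0.33 for Idi1, -0.19 for Sqle, -0.27 for Lss and 0.15 for Hmgcs1. No sign changed and no gene was called under either scaling.

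**Figure D2:**
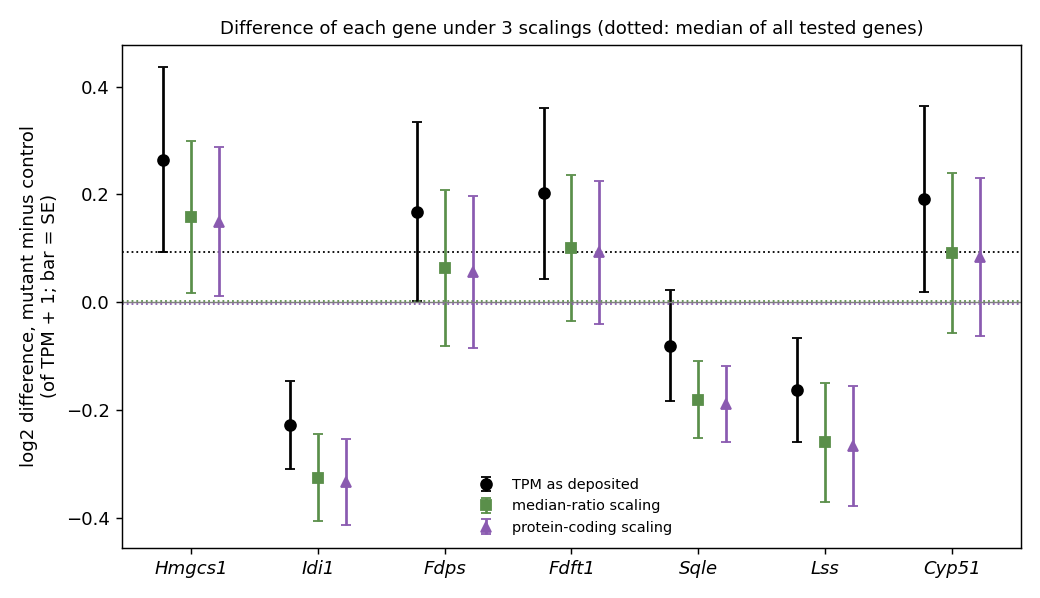
Log2 difference of each cholesterol synthesis gene, mutant minus control, of TPM + 1 (vertical axis, bars are the SE), under the deposited TPM, median-ratio scaling and protein-coding scaling. Dotted lines mark the median of all tested genes under each scaling, and Idi1 lies lowest and Hmgcs1 highest under all 3.

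Control replicates 1 and 2 set much of the spread within the controls. Control replicate 2 was the highest control for 6 of the 7 genes and the lowest for Lss, and control replicate 1 was the lowest for 4. The median log2 difference of the 7 genes was 0.0080 without control replicate 1 and 0.30 without control replicate 2. Mutant replicate 2 was the highest mutant for 5 of the 7, and mutant replicate 3 the lowest for 5. The summed level of the 7 genes was 117, 153 and 123 TPM in the controls and 143, 157 and 131 TPM in the mutants, with control replicate 2 inside the range of the mutants. The same library had the highest Leydig sum and the lowest spermatocyte sum of the controls, as given above, and the part of cell makeup in these values was not tested. Without control replicate 2, Hmgcs1, Fdps and Cyp51 were higher and Idi1 and Lss were lower in the mutants with no overlap, and none was called. In that comparison 29.8% of all genes were higher and 12.3% lower with no overlap, so both shares are also larger over all genes than with all libraries.

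Of the 21 ratios between pairs of the 7 genes, 5 did not overlap between the groups, against 21.6% of the ratios between all pairs of tested genes above 0 TPM in every library. The count of 5 is near that share, the 21 ratios share members, and the ratios named here were chosen after their values were seen. Hmgcs1 over Idi1 was 4.50, 5.36 and 3.83 in the controls and 6.54, 7.51 and 5.58 in the mutants. All 3 mutants lay above all 3 controls. Idi1 over Fdps and Idi1 over Fdft1 were lower in every mutant, and Hmgcs1 over Sqle and Fdft1 over Sqle were higher in every mutant. Each of the 5 had an exact two-sided permutation p of 0.1 before any adjustment, the smallest the design allows. A ratio within a library does not depend on its scaling. Fdps over Cyp51 stayed within a narrow range, at 2.54 to 2.67 in controls and 2.40 to 2.67 in mutants.

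The reads of some of these genes can be shared with other transcripts, and the sources used here do not say how the authors assigned such reads. Of the 50-base stretches of the most abundant isoform of each gene, 82.0% also occurred in transcripts of other genes for Fdps, 39.8% for Fdft1, 30.5% for Idi1, 14.5% for Hmgcs1, 4.35% for Lss, 3.17% for Cyp51 and 0 for Sqle (GENCODE M21, either strand). For Idi1 the largest part, 21.3%, was shared with the processed pseudogene Gm13502 (chr2:53696121-53696804). Gm13502 was 5.99, 9.02 and 1.55 TPM in the controls and 8.56, 12.2 and 1.87 TPM in the mutants, a far wider spread than that of Idi1. In replicate 3 of either group, where Gm13502 was low, Idi1 was 9.65 TPM in the control and 8.39 TPM in the mutant. Idi1 and Gm13502 together came to 15.9, 19.4 and 11.2 TPM in the controls and 16.9, 20.5 and 10.3 TPM in the mutants. In this sum the groups overlapped, and the mean was 15.5 TPM in the controls and 15.9 TPM in the mutants. The wide spread of Gm13502 sets most of the spread of the sum. TPM is corrected for length, so a read moved between transcripts of unlike length would not keep the sum. The sum therefore cannot show whether the Idi1 difference depends on shared reads. Whether reads moved between Idi1 and Gm13502 was not tested.

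**Figure D3:**
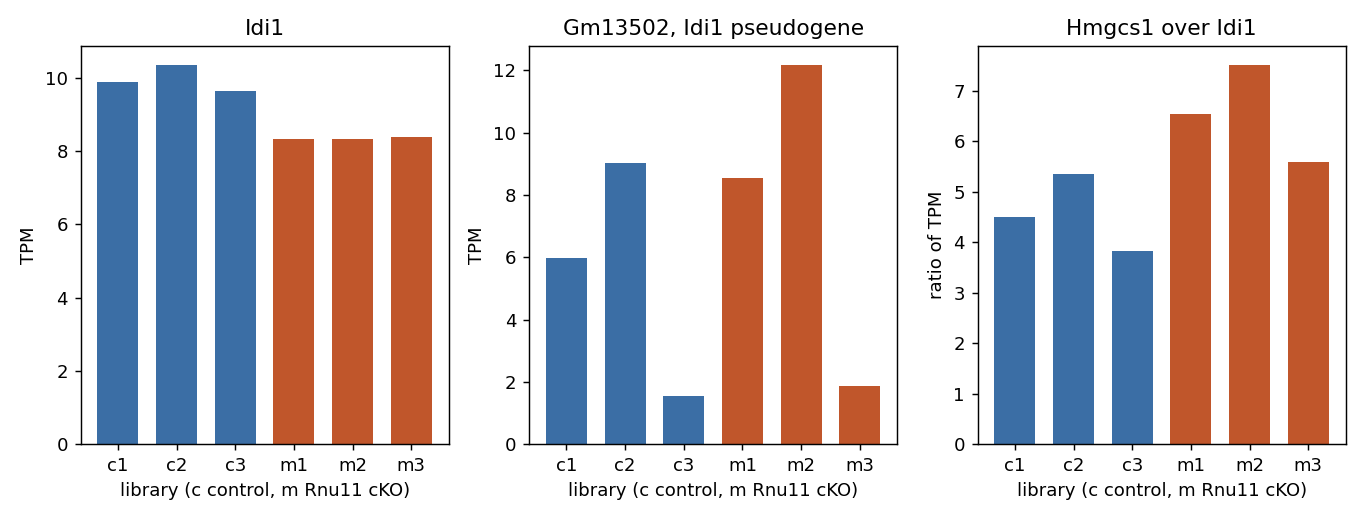
Bars give the TPM of Idi1, the TPM of its pseudogene Gm13502 and the ratio of Hmgcs1 to Idi1 in each library (vertical axes start at 0). Idi1 is lower in all 3 mutants, Gm13502 is low in replicate 3 of both groups (1.55 and 1.87 TPM), and the ratio is higher in all 3 mutants.

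Fdps shared 71.7% of its stretches with Gm43738, a protein-coding gene model that overlaps it on the same strand and was between 0 and 0.016 TPM in the 6 libraries. It also shared 45.0% with the pseudogene Gm3571 and 20.5% with Gm5873, which averaged 1.33 and 2.97 TPM in the controls and 1.10 and 3.15 TPM in the mutants. Fdft1 shared 25.7% with Ctsb, the gene of the protease cathepsin B, which runs on the opposite strand and overlaps the end of Fdft1 by 774 bases. Ctsb averaged 30.2 ± 4.67 TPM in the controls and 39.9 ± 7.83 in the mutants (SD, n = 3). The kit keeps the strand of each read, but whether the counting used it is not stated. This bears on Fdft1 and on Hmgcs1, whose shared stretches are those of the antisense gene Gm48342 (1.51 TPM in controls and 1.79 TPM in mutants). It also bears on Cyp51, which shares 3.01% with the opposite-strand gene Akap9 (31.4 TPM in controls and 33.8 TPM in mutants). The same holds for Lss, with 4.35% shared with 4930483K19Rik, and for Idi1, with 9.20% shared with Gm48574. The stretches Fdps shares with Gm43738 lie on its own strand. The values of Fdps, Fdft1 and Idi1 are uncertain to the extent that shared reads were split.

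The 7 genes have 36 isoforms in the tables, of which 19 had a mean of at least 1 TPM and were tested. Of these 19, 11 were higher and 8 lower in the mutants, none was called by limma over 44197 isoforms, and 0 had an unadjusted p under 0.05 (lowest limma adjusted p = 0.46). Over all isoforms tested, 0.0136% were called. Idi1-201, the main protein-coding isoform of Idi1, was 9.09, 9.74 and 8.99 TPM in the controls and 7.70, 8.18 and 7.89 TPM in the mutants, and was the 1 isoform of the 19 that was lower with no overlap, against 5.17% of all isoforms. Fdft1-204 was the 1 that was higher with no overlap, at 2.18, 2.75 and 2.56 TPM in controls and 3.30, 3.34 and 2.92 TPM in mutants, against 11.6% of all isoforms. The main isoform carried 78.4% of Hmgcs1, 93.1% of Idi1, 72.8% of Fdps, 84.0% of Sqle and 85.4% of Cyp51 in controls. In the mutants these shares were 77.1%, 94.9%, 76.6%, 84.1% and 85.1%. Lss was divided among more isoforms, with 40.02% in its main isoform in controls and 45.8% in mutants.

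In Fdft1 no annotated exon holds a whole intron of the gene, so the type retained intron is only a label here. Fdft1-203, a transcript annotated with that type (chr14:63159274-63165036), varied widely between libraries. It was 4.14, 6.06 and 6.38 TPM in the controls and 5.50, 2.57 and 0.205 TPM in the mutants. Mutant replicate 1 lay within the controls, replicate 2 below them and replicate 3 near 0. The log2 difference was -1.09 with an SE of 0.57 (limma adjusted p = 0.49). Without mutant replicate 3 it was -0.42, and without mutant replicate 1 it was -1.64. Among the isoforms of Fdft1 in GENCODE M21 it took 39.8%, 36.4% and 39.9% in controls and 34.9%, 17.5% and 2.26% in mutants. The groups did not overlap, but the spread within the mutants was large, and the log2 difference of the share, -2.001 with an SE of 0.96, was not called (limma adjusted p = 0.86). Without mutant replicate 3 it was -0.89, and with a pseudocount of 1 it was -1.32.

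The Fdft1 gene value also exceeded the sum of its 4 isoforms known to GENCODE M21. The remainder was 1.41, 0.762 and 0.955 TPM in controls and 1.56, 4.68 and 7.14 TPM in mutants, lower in every control than in any mutant. The exact two-sided permutation p was 0.1, the smallest the design allows, and no share over all genes was at hand for comparison. As a percent of the Fdft1 gene value the remainder overlapped between the groups (exact two-sided permutation p = 0.2). It was 11.99%, 4.38% and 5.64% in controls and 8.998%, 24.18% and 44.04% in mutants. The values of the other 6 genes equalled their isoform sums, as did 98.3% of 17569 genes within 0.1%. Fdft1-203 and the remainder together came to 5.55, 6.82 and 7.34 TPM in controls and 7.06, 7.25 and 7.34 TPM in mutants. Their sum lay within 6.82 to 7.34 TPM in 5 of the 6 libraries, and mutant replicate 3, lowest in Fdft1-203, was highest in the remainder. The protein-coding isoforms Fdft1-201 and Fdft1-204 together were 8.67 ± 2.32 TPM in the controls and 10.005 ± 1.94 in the mutants (SD, n = 3).

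**Figure D4:**
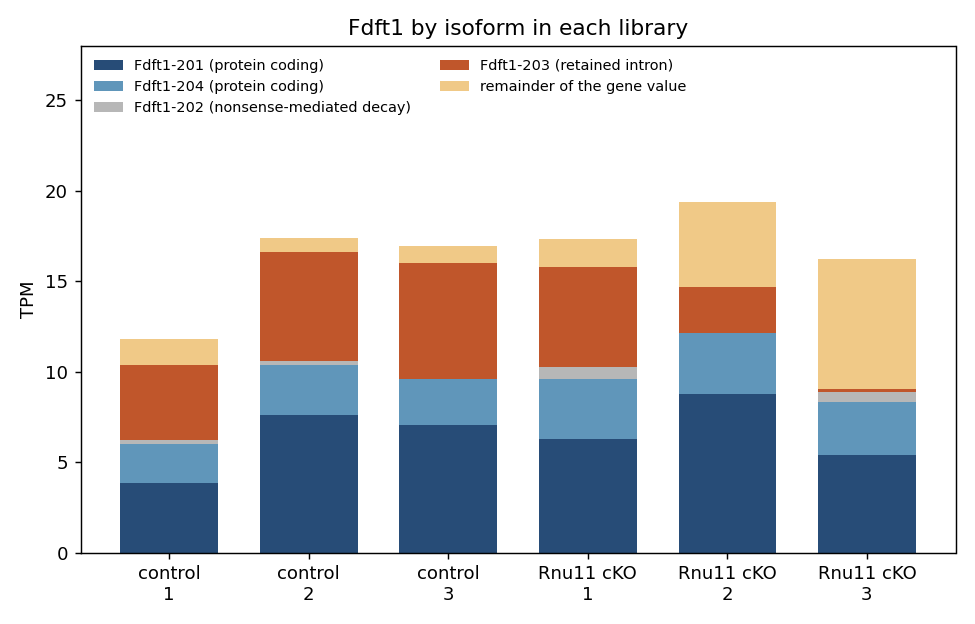
Stacked bars give the TPM of each Fdft1 isoform and of the remainder of the gene value in each of the 6 libraries (vertical axis from 0). Fdft1-203 is 2.57 and 0.205 TPM in mutant replicates 2 and 3, where the remainder is 4.68 and 7.14 TPM, and 4.14 to 6.38 TPM in the other 4 libraries.

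Shares of 23 isoforms were tested and none was called over 35607 isoforms, of which 0.0112% were called. At an unadjusted p under 0.05 there were 2, both of Lss. The share of the retained-intron transcript Lss-203 was 4.77%, 3.02% and 6.20% in controls and 7.65%, 9.13% and 13.8% in mutants (log2 difference 1.06, limma adjusted p = 0.85). The share of the protein-coding Lss-208 was 8.92%, 6.07% and 8.90% in controls and 3.18%, 4.52% and 5.28% in mutants (log2 difference -0.75, limma adjusted p = 0.85). With a pseudocount of 1 in place of 0.1, the log2 difference was 0.57 for Lss-203 and -0.23 for Lss-208, whose unadjusted limma p was then 0.13. Neither group pair overlapped, and both isoforms were at most 1.08 TPM in every library. Shares without overlap were found for 5 of the 23, the others being Fdft1-203, Fdps-201 and Fdps-205, against 11.8% of all shares. Retained intron is the annotated type of a transcript. In Hmgcs1, Fdft1, Sqle and Cyp51 no annotated exon holds a whole intron of the gene, and Lss-203 holds none either. The percentages below are therefore those of a label, not a measure of intron retention. All retained-intron transcripts of a gene together made up 4.05% of Hmgcs1 in controls and 4.21% in mutants, and 15.7% and 15.8% of Sqle. They made up 5.53% and 4.64% of Idi1. In Fdft1 they were 38.7% and 18.2% of its GENCODE M21 isoforms, all of it Fdft1-203 as described above. The groups did not overlap (exact two-sided permutation p = 0.1, the smallest the design allows). Of the Fdft1 gene value, Fdft1-203 made up 35.9% in controls and 15.4% in mutants. Retained-intron transcripts made up 11.8% and 12.1% of Fdps, 14.6% and 14.9% of Cyp51, and 49.1% and 49.9% of Lss.

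Minor introns are the direct substrate of U11. Of the 90 introns of the 7 genes, the end sequences of 8 could be read from overlapping transcripts, in Fdps, Lss and Idi1. All 8 began with GT and ended with AG, ends that the search for minor introns also allowed. None had the letters of a minor intron. Some of those in Fdps overlap one another, so the 8 are not all separate. The other introns were not read.

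The genes whose profile over the 6 libraries was most like the mean of the 7 (each set to a common scale, over 9427 protein-coding genes of at least 5 TPM) were Surf6 (Pearson's r = 0.996), Psmd8 (0.990), Hnrnpc (0.989), Ube2e1 (0.987), Wdr45b (0.973) and Cct5 (0.971). With 6 points, 124 genes had an r above 0.9, and all genes share the scaling of their library. Their log2 differences between the groups lay within -0.01 to 0.00, and each of them was highest in control replicate 2, as was the mean of the 7. Of the 7 genes, Sqle followed the mean of the other 6 most closely (r = 0.81), ahead of Fdps (0.72), Cyp51 (0.71), Fdft1 (0.55) and Hmgcs1 (0.31). Idi1 did not follow it (-0.08) and Lss ran against it (-0.65).

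No other gene of the pathway lists was called, the lowest limma adjusted p being 0.29. These lists give the setting of the 7 genes. For comparison, 66.4% of all tested genes were higher in the mutants. At an unadjusted p under 0.05, 12.1% were higher, and 14.5% were higher without overlap. The 4 other tested enzymes on the way to squalene were all higher in mean, with a median log2 difference of 0.11 and 0 at an unadjusted p under 0.05. They were Mvd (0.20), Acat2 (0.15), Pmvk (0.08) and Mvk (0.02). After median-ratio scaling the median of these 4 was 0.02, and Mvk turned negative, at -0.07. Of 9 enzymes that turn lanosterol into cholesterol, 7 were higher and 2 lower, with a median of 0.19 and 1 at an unadjusted p under 0.05. That gene was Ebp, a sterol isomerase, at 20.7, 22.9 and 18.8 TPM in controls and 30.4, 32.8 and 29.8 TPM in mutants. Its groups did not overlap (20.8 ± 2.04 and 31.0 ± 1.59 TPM; SD, n = 3), with a log2 difference of 0.56 and an SE of 0.10 (limma adjusted p = 0.29). Dhcr7 (0.37), Msmo1 (0.26) and Sc5d (0.24) had overlapping groups. The median of the 9 became 0.10 after median-ratio scaling.

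Of 11 genes of sterol sensing and SREBP activation, 10 were higher and 1 lower in mean (median 0.12), and 0 had an unadjusted p under 0.05. The lower one was Insig1, an SREBP target whose protein holds the SREBP complex in the endoplasmic reticulum. It was 11.9, 14.3 and 13.7 TPM in controls and 11.3, 11.1 and 11.4 TPM in mutants, below the controls in every mutant as Idi1 was (log2 difference -0.22, SE 0.10, limma adjusted p = 0.31). Rnf145, a ubiquitin ligase of sterol sensing, was higher without overlap (19.7 ± 2.15 and 26.4 ± 6.32 TPM; SD, n = 3). Mbtps1 (0.22) and Mbtps2 (0.21), the proteases that release SREBPs, overlapped. The median of the 11 became 0.01 after median-ratio scaling. Among all tested genes 66.4% were higher, and 14.5% were higher and 5.77% lower without overlap.

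Lists of genes that take up, move, store or export cholesterol had larger medians than the 7 genes, whose median was 0.17. Without control replicate 2 this order turned for uptake and transport, with 0.289 against 0.295 for the 7 genes. In a list of lipoprotein uptake and transport inside the cell, 12 of 12 tested genes were higher in mean, with a median log2 difference of 0.27 and 5 at an unadjusted p under 0.05. Npc2, which carries cholesterol out of lysosomes, was 24.4 ± 1.48 TPM in the controls and 32.1 ± 3.42 in the mutants, and the lipoprotein receptor gene Lrp8 was 27.2 ± 3.65 and 36.5 ± 4.20 TPM (SD, n = 3). Stard3 (0.32) and Lipa (0.36), the lysosomal acid lipase, were also higher without overlap. In a list of efflux and storage, 7 of 8 were higher, with a median of 0.37 and 4 at an unadjusted p under 0.05. Abca1, the exporter of cholesterol to apolipoproteins, was 39.0 ± 6.75 and 61.5 ± 9.82 TPM, and Soat1, which esterifies cholesterol for storage, was 75.9 ± 32.8 and 125 ± 20.997 TPM (SD, n = 3). Soat1 was 113.5 TPM in control replicate 2, above the lowest mutant. Cyp27a1 (0.50) and Nr1h3 (0.55), which encodes the oxysterol receptor LXR alpha, were higher without overlap. Among all tested genes 66.4% were higher, 12.1% were higher at an unadjusted p under 0.05 and 14.5% higher without overlap. After median-ratio scaling the medians were 0.17 for uptake and transport, 0.28 for efflux and storage and 0.06 for the 7 genes. The difference between these lists and the 7 genes was not tested.

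Fatty acid synthesis, which the related factor SREBP1 is known to drive, showed higher means in 9 of 10 genes, with a median log2 difference of 0.44 and 8 at an unadjusted p under 0.05. Of the 10 genes, 1 was higher without overlap. Among all tested genes 66.4% were higher in mean, 12.1% were higher at an unadjusted p under 0.05 and 14.5% were higher without overlap. The median of this list became 0.34 after median-ratio scaling. Scd2 was 84.6 ± 7.29 and 117 ± 24.5 TPM and Fasn was 101 ± 20.0 and 137 ± 18.4 TPM (SD, n = 3), and Elovl6 (0.55) and Elovl5 (0.46) were likewise higher in mean, all with overlapping groups. Of 13 genes that use isoprenoids for other ends, 9 were higher and 4 lower, with 1 at an unadjusted p under 0.05 and a median of 0.09 that became -0.01 after median-ratio scaling. Zmpste24 (0.35), Coq2 (0.25) and Fntb (0.15) were higher and Icmt (-0.20) was lower in mean. Beside these values stand those of the cell markers: all 10 Leydig markers were higher in mean (median 0.88), as were all 15 Sertoli markers (0.47) and all 8 macrophage markers (0.43), and all 14 spermatocyte markers were lower (-0.66). The other marker lists were mixed. Of 10 spermatogonia markers 3 were higher and 7 lower (median -0.08). Of 6 peritubular myoid markers 4 were higher and 2 lower (0.16), and of 7 endothelial markers 6 were higher and 1 lower (0.21). The lead Leydig and Sertoli genes were Fdx1 (1.12), Star (1.42), Defb36 (0.72) and Ctsl (0.61), and the lead spermatocyte genes were Hfm1 (-1.02) and Smc1b (-0.69). No marker was at 0 in every library. The part of cell makeup in the lipid gene values was not tested.

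**Figure D5:**
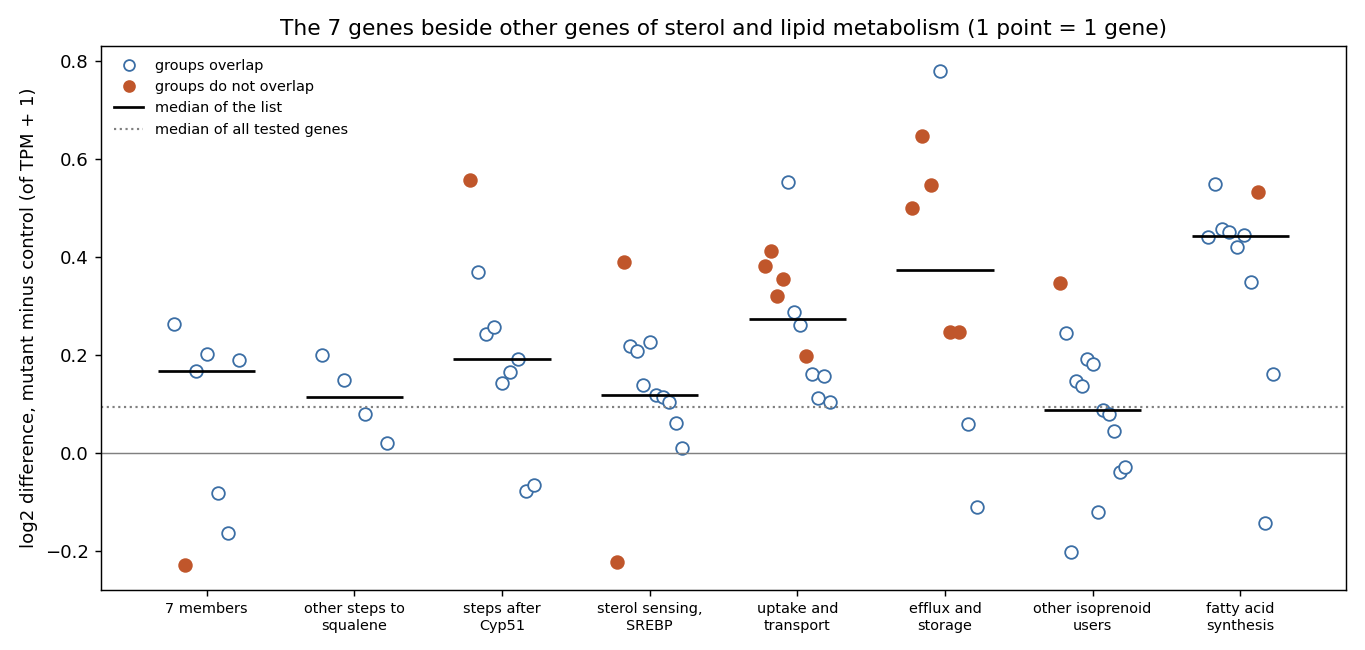
Each point is the log2 difference of 1 gene, mutant minus control, of TPM + 1 (vertical axis), in the 7 cholesterol synthesis genes and 7 lists of related genes. Filled points have no overlap between the groups, black lines are list medians (0.17 for the 7 genes, 0.44 for fatty acid synthesis) and the dotted line is the median of all tested genes, 0.09.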

How the data were processed

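Whole testes were profiled in 3 control and 3 Rnu11 cKO libraries. Groups and replicate numbers came from the labels, which number the testes and do not name the animals. Libraries used a stranded total RNA kit with ribosomal RNA depletion, per the labels' protocols. HISAT2 and GRCm38 are named in the submitters' processing notes; the quantifier and annotation release are not stated. TPM estimates of genes and isoforms were deposited by the authors, without counts, with a table of log2 fold changes, used only for the authors' own values.

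Genes or isoforms with a mean of at least 1 TPM were tested on log2(TPM + 1) with limma 3.58.1 in R 4.3.3 (lmFit, eBayes with trend), two-sided, Benjamini-Hochberg adjusted over all tested, with a threshold of 0.05. These differences understate the change of genes near 1 TPM. Isoform shares were tested as log2 of (isoform TPM + 0.1) over (other isoforms + 0.1), without trend, where the gene reached 5 TPM and the isoform made up 5% to 95% of it. The fits were tested on simulated data. Annotation was GENCODE M21, matched to 54452 of 55353 symbols, with promoters from RefSeq. The 7 genes and all lists were chosen with earlier results of these data known. Named were all 7 genes, up to 4 genes of each pathway list by smallest limma p, up to 2 for the Leydig, Sertoli and spermatocyte lists, and the 6 most similar profiles. Alternatives were the pseudocount (for shares 1 in place of 0.1), the filter, 2 rescalings, no trend, a replicate block and leaving out each library. Protein sequences were not used here.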

Additional observations from a re-analysis of the deposited data

How the results depend on the processing

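Under 13 alternatives each (pseudocount, filter, both rescalings, no trend, replicate block, and each library left out) all 7 cholesterol synthesis genes kept their direction and none was called. Idi1 ranged from -0.33 to -0.20, with limma adjusted p between 0.20 and 0.62. Its unadjusted limma p was 0.0058 after median-ratio scaling, 0.0048 after protein-coding scaling and 0.055 with the replicate block. Without single libraries it ran from 0.044 (mutant replicate 3 left out) to 0.079 (mutant replicate 1 left out). With the replicate block Hmgcs1 had an unadjusted limma p of 0.033. Fdps came closest to 0, at 0.01 without control replicate 1. When single libraries were left out, the median of the 7 lay between 0.0080, with control replicate 1 left out, and 0.30, with control replicate 2 left out. Genes lower without overlap were 1 of the 7 with all libraries and 2 after median-ratio scaling (Idi1 and Sqle) and 2 after protein-coding scaling, when 1963 and 2076 of all 17959 genes were; leaving out single libraries gave 1 to 2. Genes higher without overlap were 0, and 0 to 3 without single libraries, the 3 being Hmgcs1, Fdps and Cyp51 without control replicate 2, when 5357 of all 17959 genes were. Over all genes 5 were called, against 8 with a pseudocount of 0.1, 0 without a filter, 3 with the filter of 5 TPM, 3 after either rescaling (median-ratio 3, protein-coding 3), 3 without trend and 2 to 8 without single libraries (2 without mutant replicate 3, 8 without control replicate 3).

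With a replicate block limma called 0 genes, with 2663 higher and 759 lower at an unadjusted p under 0.05. Same-numbered libraries did not deviate together (r across genes -0.07, 0.04 and 0.08). The labels do not say what a number stands for, and correlations of so few libraries cannot show whether samples were paired. The level of Fdft1-201 turned from higher to lower without some libraries (lowest -0.11 without control replicate 1, highest 0.30 without control replicate 2). Lss-201 did so as well, at -0.065 with median-ratio scaling and -0.072 with protein-coding scaling, and from -0.031 to 0.069 without single libraries. The efflux and storage median was 0.57 under the filter of 5 TPM, which leaves fewer genes. Depth was unknown, so isoforms near 0 TPM carry an error that could not be given.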
